A study of Homo sapiens with 6 samples.

Results

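The MYC, MAX and MXD network was examined in the human melanoma line A375 through its 10 listed genes: MYC, MYCL, MAX, MXD1, MXD3, MXD4, MXI1, MNT, MGA and MLX. The genes were found by their symbols, from a list drawn up with earlier results of these data known, and each of the 10 symbols matched 1 gene among the 28395 genes of the expression table. The labels give the cells as wild type, and all of them were cultured for 6 h with an oil at 0.01%, which was plain olive oil in the control group (OLO) and the ozonated form in the treated group (OZO). There were 6 RNA-seq libraries, 3 per group. The measurement used here is a single value per gene, the authors' mean log2 CPM, the count scaled to the size of the library, over all 6 libraries. OLO and OZO are therefore averaged together, values of single libraries or of either group were not analysed here, and no difference between OZO and OLO is given for any gene. The mean of a gene that differs between the groups belongs to neither of them.

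The network is built from transcription factors with a basic helix-loop-helix leucine zipper, which bind DNA as pairs. MAX is the shared partner: with MYC or MYCL it binds the E-box CACGTG and activates genes of growth and biosynthesis, and with MXD1, MXD3, MXD4, MXI1 or MNT it binds the same site and represses. MGA pairs with MAX inside a Polycomb complex, whereas MLX is the partner of the glucose-responsive factors MondoA (MLXIP) and ChREBP (MLXIPL) and can also pair with some MXD proteins and MNT. MYC is known to drive proliferation in many tumours, and its protein is stabilised by ERK signalling, the pathway downstream of BRAF.

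The E-box, as the DNA site of these pairs, was looked for in the members' own promoters, taken from RefSeq (GRCh38.p14) as 300 bases from 250 before to 50 after a start site. Of the members, 9 were in the table of promoters, all except MYC, with 14 promoters in total. The letters CACGTG, which read the same on both strands, were found in 3 of these 14 promoters (21.4%), and in 7.26% of the 35116 promoters of all genes. The 3 promoters belong to MLX, MNT and MXD4, and the 3 sites are shown because they are the matches to the site the network itself recognises. Each is given 5′ to 3′ on the strand of its gene with up to 20 bases on either side, and the capitals mark the E-box.
MLX, chr17:42567030-42567075, plus strand: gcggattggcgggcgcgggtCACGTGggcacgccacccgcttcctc
MNT, chr17:2401228-2401273, minus strand: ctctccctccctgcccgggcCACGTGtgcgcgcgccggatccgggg
MXD4, chr4:2262322-2262359, minus strand: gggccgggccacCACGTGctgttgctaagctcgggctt
The site of MLX began 50 bases before the start, that of MNT 193 bases before and that of MXD4 238 bases before. The looser motif CANNTG, which includes CACGTG, was found in 9 of the 14 member promoters (64.3%), which belong to 8 members, and in 68.7% of all promoters. The share of CACGTG among the members rests on 3 promoters, and some members have several promoters. The difference from the share over all promoters was not tested, and GC content was not matched. A match of letters is a description and not evidence of binding.

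The depth was read from the lowest values of the table. Because voom adds 0.5 to every count, the lowest mean, −5.20 log2 CPM, belongs to genes with no read in any library, which implies libraries of 18409903 counted fragments as a geometric mean, on the authors' scaled sizes. At this depth 13773 genes had a mean of at least 10 implied reads per library, and each of the 10 members was among them. The labelled melanoma identity was compared with marker genes. The melanocyte lineage factors SOX10 and MITF had an implied 919 and 499 reads per library, whereas the pigment genes were low, with 36.6 for MLANA, 5.75 for PMEL, 4.74 for DCT and no read for TYR. AXL, NGFR and EGFR, which mark dedifferentiated melanoma cells, had 4915, 696 and 520 implied reads. Of the markers of other cell types, the immune genes PTPRC and CD3E had 1.07 and 0.10, the endothelial genes PECAM1 and VWF 19.5 and 0.70, and the keratinocyte genes KRT14, KRT5 and KRT1 77.5, 1.56 and 0. These reads are not divided by gene length. Per kilobase of annotated exon, AXL and NGFR had 5.70 and 3.19 log2 CPM, but EGFR had 0.83 and KRT14 0.91. Per kilobase of the canonical transcript EGFR had 1.51 and KRT14 1.37, so EGFR is not set above KRT14. In a bulk sample a few cells with a high level and many with a low one cannot be told apart.

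MAX, the obligate partner (chromosome 14, 65006174 to 65102695, minus strand in GENCODE 44, hg38), had a mean of 6.16 log2 CPM. This corresponds to an implied 1314 reads per library, with a 95% Poisson interval of 1285 to 1343. Such an interval covers counting error only, and it is approximate because the implied reads are a geometric mean over the libraries. To compare genes of different length, the mean was divided by the length of all exons of the gene annotated in GENCODE 44. The exons used for counting may differ from these. MAX then had a level of 3.51 log2 CPM per kilobase, at the 72.0th percentile of genes with at least 10 implied reads.

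MLX and MXD1 were the other members at this height. MLX (chromosome 17, 42567072 to 42573239) had an implied 1203 reads and a level of 3.94 log2 CPM per kilobase. MXD1 (chromosome 2, 69897688 to 69942945), an antagonist known for its induction during differentiation, had the highest mean of the network before division by length, 6.26 log2 CPM or 1410 implied reads, and a level of 3.59 log2 CPM per kilobase. MLX, MXD1 and MAX lay within 0.43 of each other on this scale, and their order changed with the length used, so they are not ranked among themselves. With the canonical transcript in place of all exons, MAX came first with 5.15 log2 CPM per kilobase, followed by MLX with 4.79 and MXD1 with 3.79. Under each of the lengths tried these 3 genes stood above the other 7.

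**Figure D1:**
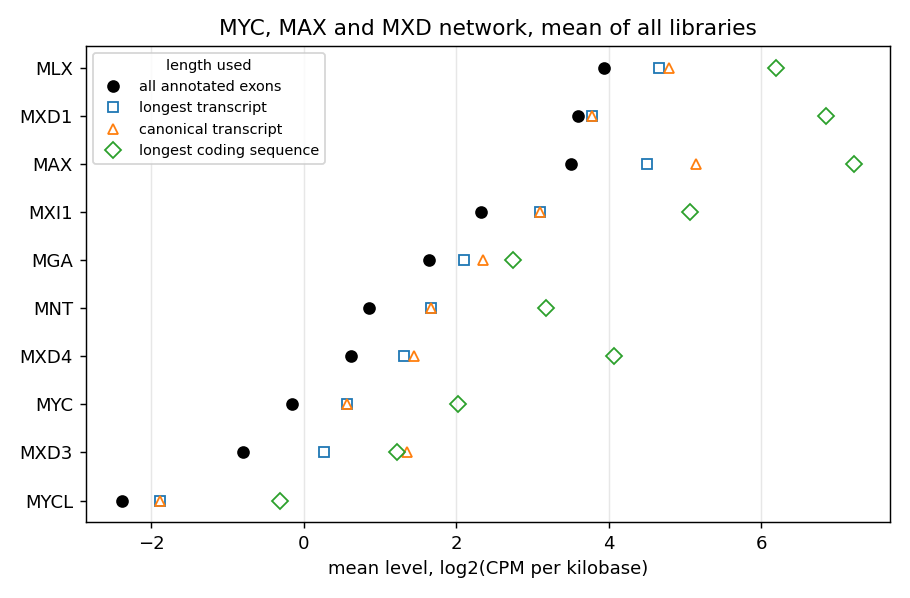
Mean level of each member over all 6 libraries on a log2 scale of CPM per kilobase (horizontal axis), with the genes ordered by the level over all annotated exons (filled circles) and open symbols for 3 other lengths. MLX, MXD1 and MAX change places with the length used, while MYCL is lowest with each of them.

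The remaining antagonists were spread over a wide range. MXI1 (chromosome 10, 110207605 to 110287365), which like the MXD proteins recruits the SIN3 corepressor, had 547 implied reads (95% Poisson interval 528 to 566) and a level of 2.33 log2 CPM per kilobase. MGA (chromosome 15, 41621134 to 41773081), by far the longest gene of the network with 20074 bases of annotated exon, had 1150 implied reads but a level of only 1.64 log2 CPM per kilobase. The place of MGA depended on length, as it ranked 4 of the 10 by CPM, 5 per kilobase of exon and 7 per kilobase of coding sequence.

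MNT (chromosome 17, 2384073 to 2401104), a broadly expressed repressor, had 289 implied reads and a level of 0.85 log2 CPM per kilobase. MXD4 (chromosome 4, 2247432 to 2262109) followed with 193 implied reads and 0.61 log2 CPM per kilobase. The gap between MNT and MXD4 was 0.24 and turned round with the coding length, so this pair is not ordered. MXD3 (chromosome 5, 177301461 to 177312757), an MXD member known from proliferating cells in S phase, was the lowest antagonist, with 49.8 implied reads (95% Poisson interval 44.3 to 55.8) and −0.80 log2 CPM per kilobase.

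The activators were among the lowest members. MYC (chromosome 8, 127735434 to 127742951) had a mean of 2.46 log2 CPM, an implied 101 reads per library (95% Poisson interval 93.1 to 109), and a level of −0.15 log2 CPM per kilobase. It stood at the 21.6th percentile of genes with at least 10 implied reads. MAX was 12.6 times and MXD1 13.4 times as high as MYC in CPM per kilobase of annotated exon. Both ratios depended on the length. MAX over MYC was 15.3 with the longest transcript, 24.0 with the canonical transcript and 36.7 with the coding length, while MXD1 over MYC was 9.26, 9.31 and 28.5. With these 3 lengths MAX, and not MXD1, was the further above MYC. MYC was not ordered against MXD3, which was 0.65 lower on the scale of all exons and 0.79 higher with the canonical transcript.

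MYCL (chromosome 1, 39895428 to 39902256), the paralogue found in lung cancers and other tissues, was the lowest member under every length tried. It had 17.1 implied reads per library (95% Poisson interval 13.9 to 20.6) and a level of −2.38 log2 CPM per kilobase, 1.58 below MXD3. It rests on the fewest reads of the network and so has the widest counting interval relative to its level.

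**Figure D2:**
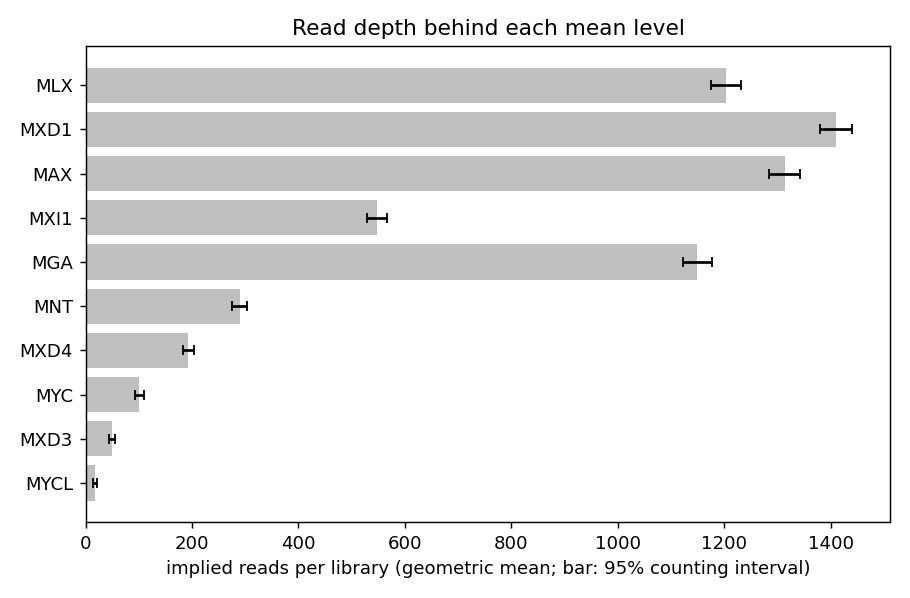
Implied reads per library behind each mean level (bars, geometric mean over the 6 libraries), with 95% Poisson intervals that cover counting error only (whiskers). MXD1, MAX, MLX and MGA rest on 1150 reads or more each, MYC on 101 and MYCL on 17.1.

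Over all 45 pairs of members, 37 were at least 0.5 apart on the log2 scale of CPM per kilobase of exon and also had the same order under the 3 other lengths and without length. The 8 pairs that were not ordered were the 3 among MLX, MXD1 and MAX, the pairs MXI1 with MGA, MGA with MNT, MGA with MXD4, MNT with MXD4, and MYC with MXD3. MYC was therefore ordered below MXD1, MXI1, MNT, MXD4 and MGA in the mean of all libraries, but not against MXD3.

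Summed by role, the 6 antagonists MXD1, MXD3, MXD4, MXI1, MNT and MGA reached 24.1 CPM per kilobase of exon, and MYC with MYCL reached 1.10, a ratio of 22.0. The ratio was 19.1 with the longest transcript, 20.5 with the canonical transcript and 37.9 with the coding length. Within the sum of MXD1, MXD3, MXD4 and MXI1, MXD1 alone held 62.8% over all exons and 49.9% with the canonical transcript. MAX was at 0.45 of the summed level of its listed MYC and antagonist partners over all exons, and at 0.94 with the canonical transcript. These ratios compare mRNA means over both oils and say nothing of protein, which for MYC is known to be short-lived.

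**Figure D3:**
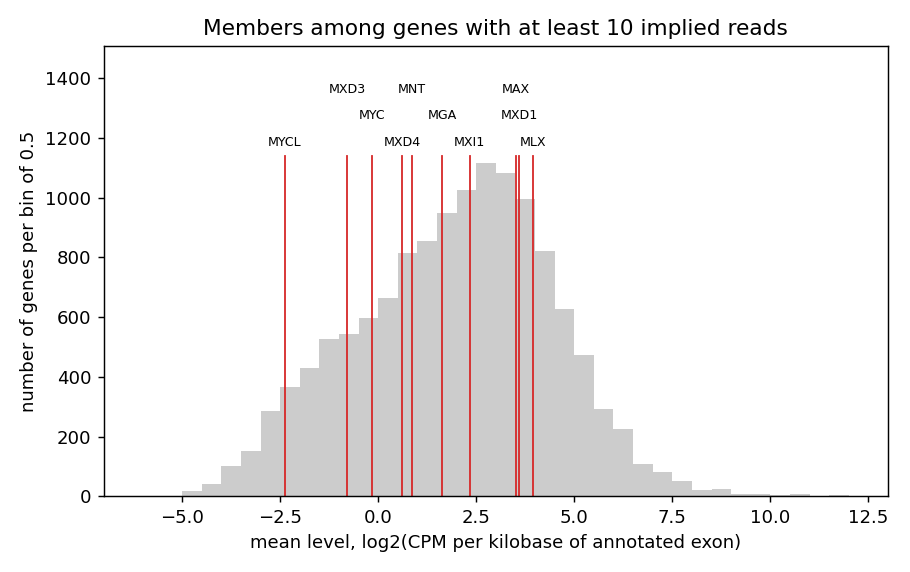
Number of genes (vertical axis, bins of 0.5) at each mean level in log2 CPM per kilobase of annotated exon, for the genes with at least 10 implied reads and a known length; the red lines mark the 10 members. MXI1, MAX, MXD1 and MLX lie above the median of 2.16 and the other 6 members below it.

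Among all 13313 genes with at least 10 implied reads and a known length, the median level was 2.16 log2 CPM per kilobase, with quartiles of 0.21 and 3.69. The members had a median of 1.25, and 4 of the 10 lay above the median of these genes. On this scale of all annotated exons only MLX exceeded the upper quartile, with 3.94 against 3.59 for MXD1 and 3.51 for MAX. MYC, MXD3 and MYCL were below the lower one. Quartiles were not computed with the other lengths, under which MLX, MXD1 and MAX change places, so MLX is not set apart from MXD1 and MAX.

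The wider network was described with lists of cofactors and targets. The highest and lowest gene of each list are named on the scale of all annotated exons, also where the gap to the next gene was under 0.5. The coactivators that MYC recruits, such as the histone acetyltransferase scaffold TRRAP and the helicases RUVBL1 and RUVBL2, had a median level of 3.78, and 10 of 10 lay above the median of genes with at least 10 implied reads. In that list ACTL6A, an actin-related subunit of the same complexes, was highest with 5.26 log2 CPM per kilobase, and the acetyltransferase KAT5 was lowest with 2.58. With the canonical transcript RUVBL1 (6.48) and RUVBL2 (6.37) stood above ACTL6A (6.25), and EP400 (3.38) stood below KAT5 (3.42). Neither end of this list is therefore ordered. The SIN3 corepressor, which MXD proteins and MXI1 recruit, had a median of 3.92 with 10 of 10 above that median. The deacetylase HDAC1 was highest with 5.72 and SIN3B lowest with 2.35 log2 CPM per kilobase. With the canonical transcript RBBP7 (7.19) stood above HDAC1 (6.63), so HDAC1 and RBBP7 are not ordered.

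The genes of the Polycomb complex in which MGA and MAX sit had a median of 3.98, with 6 of 9 above the median of genes with at least 10 implied reads. The heterochromatin protein gene CBX3 was highest with 6.79 log2 CPM per kilobase. RING1 was lowest, with an implied 0.15 reads per library that amount to 2 reads in 1 library, while RNF2, its paralogue with the same ubiquitin ligase role, had 1158 implied reads. RING1 lies in the major histocompatibility region, where near-identical alternate sequences can split or remove reads, so its level is uncertain, and the part of such sequences was not tested. The genes of MYC turnover and the MYC partner MIZ1 (ZBTB17) had a median of 3.43 with 7 of 9 above that median. AURKA, a mitotic kinase that binds MYC proteins, was highest with 6.02, and FBXW7, the ubiquitin ligase subunit that marks MYC for degradation, was lowest with 1.34 log2 CPM per kilobase.

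Of the other factors of the network, MYCN, the third MYC paralogue, had 2 reads in 1 library and none in the other libraries. The partners of MLX were unequal. MLXIP, which encodes MondoA, had 782 implied reads and a level of 1.62 log2 CPM per kilobase, whereas MLXIPL, which encodes ChREBP, had 0.89 implied reads. TXNIP and ARRDC4, the arrestin genes that MondoA and MLX activate, had levels of 3.60 and 1.82. Besides MYCN, which was lowest of its list, USF1, another E-box factor, was highest with 4.22 log2 CPM per kilobase of all exons. With the canonical transcript USF2 (4.98) stood above USF1 (4.59), so USF1 and USF2 are not ordered.

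Genes known to be activated by MYC had a median of 5.43 log2 CPM per kilobase, and 12 of 14 lay above the median of genes with at least 10 implied reads. The nucleolar protein gene NPM1 was highest with 8.99, and it has processed pseudogenes that can take reads. The cyclin gene CCND2 was lowest with 0.88 implied reads per library. Whether MYC accounts for the levels of these genes was not tested, and their levels are not a measure of MYC activity.

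**Figure D4:**
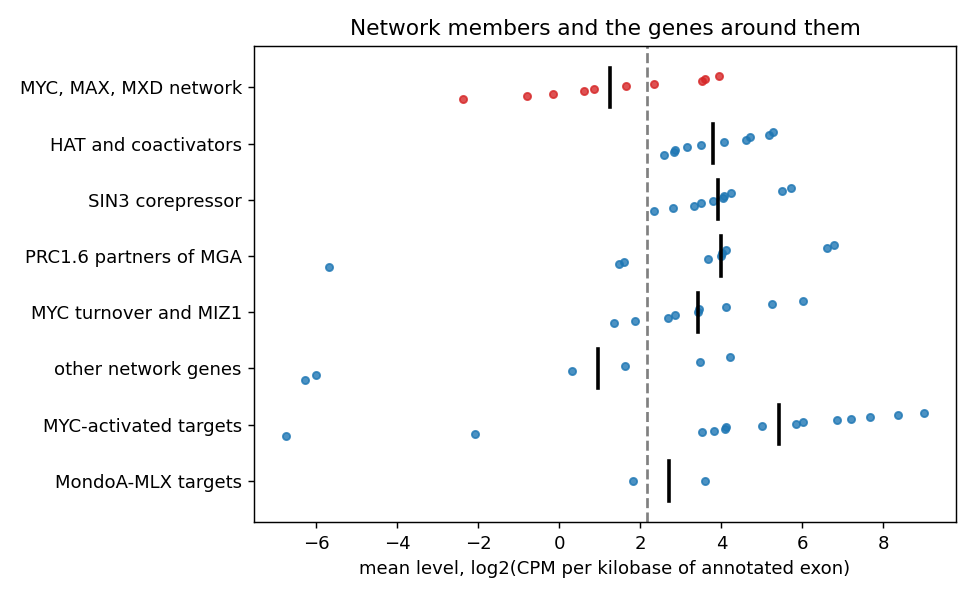
Mean level in log2 CPM per kilobase of annotated exon for the 10 members (red points) and for the genes of 7 lists around them (blue points), with the median of each list (black bar) and the median of all genes with at least 10 implied reads (dashed line, 2.16). The network members have a median of 1.25, while the coactivator and SIN3 lists lie wholly above the dashed line.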

How the data were processed

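RNA of A375 cells was sequenced in 6 libraries, 3 OLO and 3 OZO. The study's methods and the submitters' processing notes name HISAT2 2.1.0, hg38, featureCounts 2.1.1 and limma 3.58.1. Filters, scaling factors and the strand setting of counting are not given in the sources used here. The deposited log2 values used here are the authors' mean log2 CPM over all libraries. The 5 further columns of numbers in the same table hold the authors' own comparison of OZO with OLO (log2 fold change, moderated t, p-value, adjusted p-value and log odds) and were not used, so no test was run.

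Implied reads were computed as 0.5 × 2 to the power of a gene's distance from the lowest value, minus 0.5. The 13414 genes with the lowest values all gave odd whole products over the 6 libraries (tolerance 0.001). Exon, transcript and coding lengths come from GENCODE 44 and were matched for 25497 genes by Ensembl identifier. Of the 28395 genes, 25525 had such an identifier. The study's methods do not name the gene annotation that featureCounts used. The lengths may therefore include exons that were not counted, to a different extent in each gene, and the effect on the levels per kilobase was not tested. Members with a gap under 0.5 log2, or whose order changed with the length, were not ordered. Coordinates count from 1. The scripts ran in Python 3.11.15 with scipy 1.17.1.

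All 10 members are named, and of each list the highest and lowest gene, genes with no read, and MYCN, MLXIP, MLXIPL, TXNIP and ARRDC4. TRRAP, RUVBL1, RUVBL2, RNF2, EP400, RBBP7 and USF2 were added as context after their values were seen. The cell markers were listed in the plan as a check of the labelled melanoma line. Their mean levels were planned, but implied reads are given for most of them. Members and lists were chosen with earlier results of these data known, and the sums by role and the canonical transcript were added later. Protein sequences were not analysed here.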

Additional observations from a re-analysis of the deposited data

How the results depend on the processing

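No paired analysis was possible because the values used are means over all libraries, and for the same reason leaving out a replicate, edgeR, DESeq2 and filters per library were not run. Of the 10 members, 8 kept their place in the order with the longest transcript, 6 with the longest coding sequence, 5 with the canonical transcript and 5 without length. The canonical transcript raised the levels by 0.19 to 2.15 log2 and the coding sequence by 1.10 to 3.70, and subtracting the 0.5 changed them by between −0.04 and −0.0005. The ratio of antagonists to MYC and MYCL moved from 22.0 to 37.9 with the coding sequence. It was 19.1 and 20.5 with the other lengths. E-boxes were found in the promoters of 3 members as CACGTG, 4 with CACATG added (28.6% of member promoters and 17.6% of all promoters) and 8 as CANNTG. MYC stood at the 58.2nd percentile of all genes with a length, which include genes with no read, at 46.1 among genes with a read and at 21.6 among genes with at least 10 implied reads. Counting error is relatively largest for MYCL, MXD3 and MYC, and spread between libraries is unknown for every value.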
